A study of Mus musculus with 34 samples.

Results

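Immediate early genes are represented here by 10 genes chosen by symbol from the 52661 genes of the expression table: the Fos family members Fos, Fosb and Fosl2, the Jun family members Jun, Junb and Jund, the zinc finger factor Egr1, the synaptic protein gene Arc, and the immediate early response genes Ier2 and Ier5. Fos went from 2.87 RPKM (read density scaled to transcript length and to the mapped reads of the condition) in DMSO to 62.3 RPKM with the compound T5985871 and down to 0.42 RPKM with GNF-5837, while Egr1 went from 16.8 RPKM in DMSO to 0.26 RPKM with the MEK inhibitor Trametinib and to 36.8 RPKM with the histone deacetylase (HDAC) inhibitor Vorinostat. Jun, in contrast, was above DMSO with all 4 kinase inhibitors that gave the 4 lowest Egr1 levels, and reached its highest levels with GNF-5837 and Trametinib, 2 of these 4. The genes were proposed with these contrasts known, so all comparisons with DMSO below are descriptions and carry no test.

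Immediate early genes are transcribed rapidly after a stimulus because the factors that switch them on, such as serum response factor with its Elk partners and the CREB family, are already present and are activated by phosphorylation. ERK kinases, at the end of the RAS, RAF and MEK cascade, are a major input. Fos and Jun proteins pair through leucine zippers into the AP-1 transcription factor, Jun proteins can also pair with each other, and in neurons these genes serve as markers of recent activity.

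Mouse Neuro-2A (N2A) cells, established from a neuroblastoma, received each compound, or the vehicle 0.4% DMSO alone, for 24 h. PolyA RNA was sequenced from 34 libraries: 3 of DMSO alone, 2 for each of the 4 HDAC inhibitors and 1 for each of the other 23 compounds. The compounds came from a screen for modulators of microexons, the very short exons spliced into neuronal transcripts, and are ordered here by the classes the study uses. All groups share the same parental line, and the cells carry no genotype difference in the labels. The HDAC inhibitors, classed as microexon activators, were Vorinostat (2.5 µM), CI-994 (5 µM), BRD4884 (10 µM) and BRD6688 (10 µM). The kinase inhibitors, also classed as activators, were A-443654 (AKT, 250 nM), NVP-AEW-541 (IGF1R, 1 µM), Trametinib (MEK, 1 µM), Crenolanib (PDGFR, 2 µM), SCH-772984 (ERK, 2 µM) and GNF-5837 (TRK, 500 nM). The other activators, with no stated target, were BTB12021 (20 µM), BTB13120 (625 nM), RDR00572 (2.5 µM), S02045 (5 µM), BTBS00065 (2.5 µM), SEW06315 (2.5 µM) and RH01954 (2.5 µM). The microexon inhibitors were MK-1775 (WEE1, 2 µM), 5-azacytidine (DNA methyltransferase, 5 µM), AW00693 (5 µM), SPB00858 (20 µM), JFD00822 (5 µM), T5635931, T5758020, T5963258, T5985871 and ChemBridge 7678804 (each 6.7 µM).

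The labelled line was visible in its markers, with Hand2 at 248 RPKM, Stmn2 at 175 RPKM and Tubb3 at 396 RPKM in DMSO, although Nefl (0.01 RPKM) and Th (1.57 RPKM) were near 0. All 8 markers of other cell types were below 2 RPKM in DMSO, the highest being Mbp at 1.93 RPKM. The fibroblast collagen gene Col1a1 reached 11.7 RPKM with CI-994 and also passed the threshold with Vorinostat. Gata3 was higher with 6 compounds, up to 28.6 RPKM with CI-994, from 7.34 RPKM. Mycn, at 10.9 RPKM in DMSO, was lower with Trametinib, Crenolanib, SCH-772984, GNF-5837 and ChemBridge 7678804, down to 0.90 RPKM, and higher with T5985871 (23.8 RPKM). The part of these markers in the values below was not tested.

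In the annotation (GENCODE vM21, mouse build GRCm38) the 10 genes lie on 8 chromosomes. Fos is at chr12:85473890-85477273 on the plus strand and Fosl2 at chr5:32135801-32157842 on the plus strand, while Fosb is at chr7:19302696-19310051 on the minus strand. Jun lies at chr4:95049034-95052222 on the minus strand. Jund (chr8:70698949-70700616, plus strand), Ier2 (chr8:84661331-84662852, minus strand) and Junb (chr8:84974484-84978718, minus strand) share a chromosome. Arc is at chr15:74669083-74672570 on the minus strand, and Ier5 at chr1:155096361-155099636 on the minus strand. Jun, Jund, Ier2 and Ier5 are annotated with a single exon in every transcript. The library kit does not mark strand, so reads of a member and of a gene that overlaps it cannot be told apart: Jun overlaps the antisense gene Junos (0.43 RPKM in DMSO and at most 1.99 RPKM with a compound), Jund overlaps the antisense gene Gm11175, and the end of Junb overlaps that of Prdx2 (304 RPKM in DMSO, 142 to 352 RPKM with the compounds).

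The start-site windows of Fos and Jun are shown because these partners of AP-1 lay on opposite sides of DMSO with Trametinib, Crenolanib, SCH-772984 and GNF-5837. Both are RefSeq windows (build GRCm38.p6) of 250 bases before and 50 bases after the start site, written 5′ to 3′ along the gene. The Fos window is chr12:85473640-85473939 on the plus strand and the Jun window chr4:95052173-95052472 on the minus strand. Capitals mark, in order, TGACGACA, TGACGT and TATAAA in Fos, and TGACATCA and a match to the MEF2 site in Jun.
Fos: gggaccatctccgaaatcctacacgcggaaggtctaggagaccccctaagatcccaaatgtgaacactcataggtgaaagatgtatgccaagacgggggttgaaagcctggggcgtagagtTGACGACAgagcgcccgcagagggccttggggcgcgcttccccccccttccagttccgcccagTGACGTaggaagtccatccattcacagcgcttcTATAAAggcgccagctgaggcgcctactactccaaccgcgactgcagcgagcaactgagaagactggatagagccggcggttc
Jun: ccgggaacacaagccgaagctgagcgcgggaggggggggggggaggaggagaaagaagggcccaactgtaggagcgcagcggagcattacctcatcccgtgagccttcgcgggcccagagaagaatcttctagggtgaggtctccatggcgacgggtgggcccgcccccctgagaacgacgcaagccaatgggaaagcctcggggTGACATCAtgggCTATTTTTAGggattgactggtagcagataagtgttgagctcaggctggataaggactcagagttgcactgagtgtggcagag
TGACGTCA, the full CREB site, was in none of the 7 windows of members given in the reference (Ier5, Jun, Fosl2, Fosb, Jund, Junb and Fos), against 1.79% of all 32841 windows of this length. The Jund window follows the RefSeq start and ends upstream of the gene start given above. Neither TGACTCA, the AP-1 site, with its other strand TGAGTCA (5.2% of all windows), nor the CArG box bound by serum response factor (1.63%) was present in these 7. Sites farther than 250 bases before the start site, and the promoters of Egr1, Arc and Ier2, were not searched. Absence from these windows therefore does not mean that a gene lacks the site. With 1 mismatch in TGACGTCA, which is its own reverse complement, Fos (TGACGACA, 129 to 122 bases before the start site) and Jun (TGACATCA, 45 to 38 bases before it) matched, against 12.5% of all windows. Letters looked for after the windows had been seen were TGACGT, the first letters of TGACGTCA, in Fos at 66 to 61 bases before the start site (7.51% of windows), the MEF2 site in Jun at 33 to 24 bases before it (3.19%), and TATAAA, searched on the gene's strand only, in Fos and Junb (8.32%). These are matches of letters only.

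**Figure D1:**
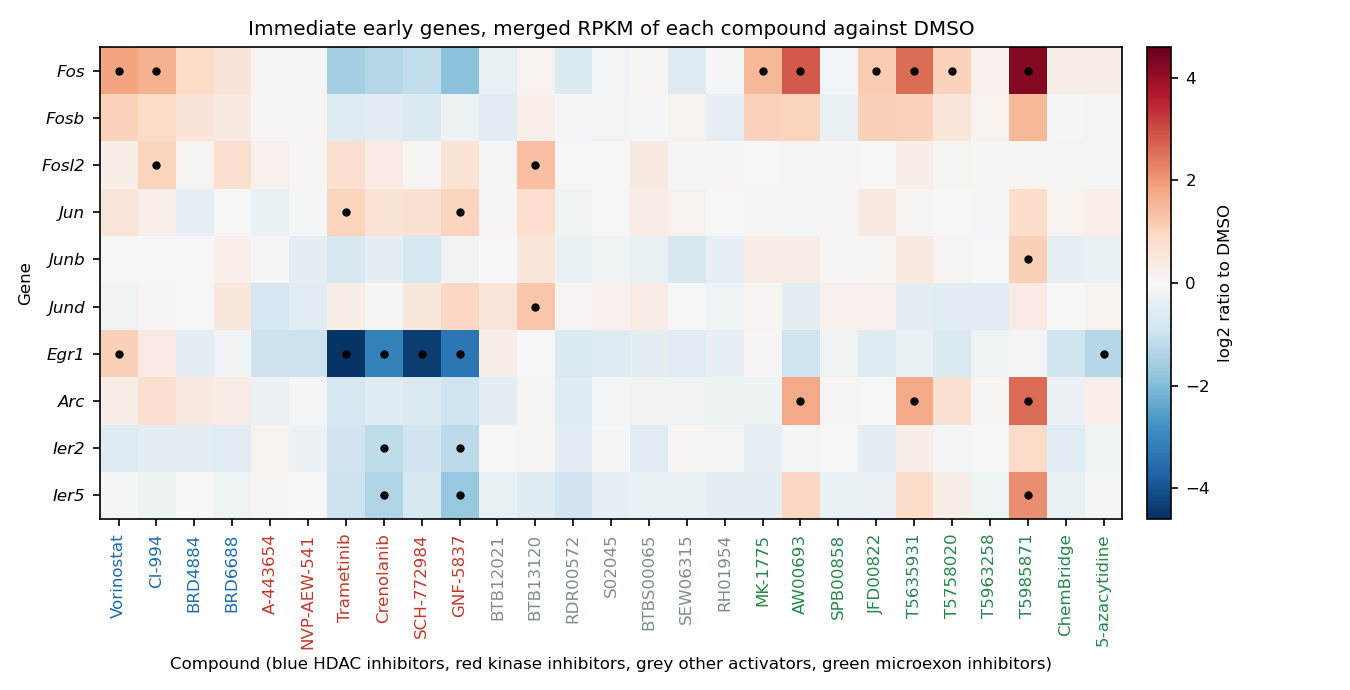
Log2 ratio of merged RPKM to DMSO (colour) for the 10 genes (rows) and 27 compounds (columns, label colours give the class). Black dots mark the pairs counted as past 2-fold. The darkest red square is Fos with T5985871 (4.22) and the darkest blue is Egr1 with Trametinib (-4.51).

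A pair of gene and compound was counted as higher or lower when the log2 ratio of RPKM + 0.5 was past 2-fold and the gene exceeded 5 RPKM with the compound or in DMSO. Of the 270 pairs, 207 were above 5 RPKM, 19 of them were higher and 9 lower, against 2.67% of all gene and compound pairs higher and 3.86% lower. The rule is uneven over the genes. Fosb never reached 5 RPKM (at most 2.12 RPKM) and could not be counted, and Fos and Arc, at 2.87 and 4.55 RPKM in DMSO, could be counted as higher but not as lower. With no filter on low values, 25 pairs were higher and 13 lower, and the share of all pairs was not counted. At the threshold, the nearest counted pairs were Jun with Trametinib (log2 ratio 1.01) and Fosl2 with CI-994 (1.03), and the nearest uncounted pairs were Ier5 with Trametinib (-0.98) and Egr1 with NVP-AEW-541 (-0.98). Each condition has 1 merged RPKM value, with no spread. The median log2 ratio of all genes above 5 RPKM was below 0 for 26 of 27 compounds and lay between -0.44 (CI-994) and 0.00 (T5758020), beyond 0.1 in 14. Centring on that median added 5 higher pairs (Fos with BRD4884, Arc with CI-994, Jund with GNF-5837, and Jun and Ier2 with T5985871) and removed none. The share of all pairs after centring was not counted.

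By class, the HDAC inhibitors had 4 pairs higher and none lower of 35 (7.78% and 15.1% of all pairs in that class), and the kinase inhibitors 2 higher and 8 lower of 42 (1.99% and 2.19%). The other activators had 2 higher and none lower of 49 (1.47% and 1.14%). The microexon inhibitors had 11 higher and 1 lower of 81 (1.79% and 2.06%).

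**Figure D2:**
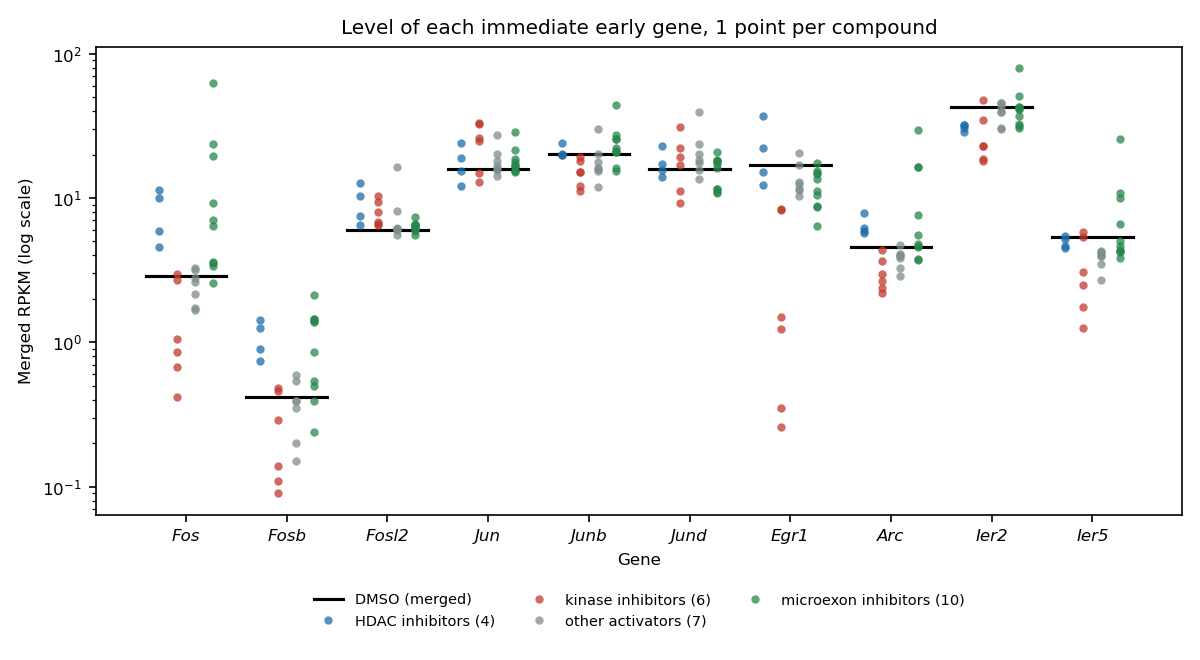
Merged RPKM (log axis) of each gene, 1 point per compound, coloured by class, with the merged DMSO value as a black bar. Fos spans 0.42 to 62.3 RPKM, whereas Fosl2 stays between 5.55 and 16.4 RPKM.

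Libraries could be compared individually only through splice junctions. Reads over exon-exon junctions of annotated introns were summed per gene and scaled to 1000000 such reads in the library (JPM), which held 17702718 to 40613524 of them. Of the 10 genes, 5 have introns in this table: Fos, Fosb, Fosl2, Egr1 and Arc. These values come from the same libraries as the RPKM and are not independent of them. A pair was counted where the mean was past 2-fold from the DMSO mean, every library of the compound lay beyond all 3 DMSO libraries, and either mean reached 1 JPM. Of 135 pairs, 27 were higher and 11 lower, against 6.19% and 2.79% of all pairs. With the HDAC inhibitors 11 of 20 pairs were higher and none lower, against 21.2% and 7.59% of all pairs. With the kinase inhibitors 1 of 30 was higher and 10 lower (5.36% and 1.87%), and with the microexon inhibitors 14 of 50 were higher and 1 lower (2.71% and 2.53%). Among the other activators 1 of 35 was higher and none lower (2.61% and 0.969%). Scaling by the median ratio over genes instead gave 10 of 20 pairs higher with the HDAC inhibitors, against 19.8% of all pairs, and none of 30 higher with the kinase inhibitors, against 4.62%.

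Fos, the AP-1 subunit that cannot pair with itself, had 2.87 RPKM in DMSO and was counted as higher with 8 compounds. The highest levels were 62.3 RPKM with T5985871 (log2 ratio 4.22), 23.6 RPKM with AW00693 (2.84) and 19.4 RPKM with T5635931 (2.56). Then came 11.4 RPKM with Vorinostat, 10.0 RPKM with CI-994, 9.27 RPKM with MK-1775, 7.01 RPKM with JFD00822 and 6.44 RPKM with T5758020. With 0.5 RPKM added, the HDAC inhibitors BRD4884 (5.87 RPKM, log2 ratio 0.92) and BRD6688 (4.59 RPKM, 0.59) fell short of 2-fold. The raw level with BRD4884 was just past it. At the low end were Trametinib (0.68 RPKM), Crenolanib (0.86), SCH-772984 (1.05) and GNF-5837 (0.42), all below the lowest of the other 23 compounds (1.68 RPKM, RDR00572). How many of all genes show such a gap was not counted.

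Fos junction reads were 4.06, 4.67 and 3.75 JPM in DMSO A, B and C. They were 26.5 and 20.5 JPM in the Vorinostat libraries, 23.5 and 25.6 with CI-994, 11.4 and 12.2 with BRD4884 and 8.98 and 10.7 with BRD6688. All 8 libraries lay above DMSO. Such calls were common with these compounds. By the junction rule, 23.9% (Vorinostat), 25.8% (CI-994), 19.1% (BRD4884) and 15.4% (BRD6688) of all genes were counted as higher. The single libraries of T5985871, AW00693 and T5635931 had 108, 38.7 and 31.1 JPM. The 4 kinase inhibitors Trametinib, Crenolanib, SCH-772984 and GNF-5837 had 1.40, 1.56, 1.67 and 0.91 JPM, from 37, 32, 66 and 18 reads, and all were below the 3 DMSO libraries. Of all genes, 2.26%, 2.44%, 1.42% and 3.3% were counted as lower with them by the junction rule. By this measure 10 compounds were higher and 4 lower, the higher ones being the 8 above with BRD4884 and BRD6688. The junction rule counted 6.72% of all genes as higher with T5985871, 2.88% with AW00693 and 1.78% with T5635931. It counted 7.1% with MK-1775, 2.91% with JFD00822 and 1.24% with T5758020.

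Fosb, the closest relative of Fos, was near the limit of detection, with 0.42 RPKM in DMSO. Its highest level was 2.12 RPKM with T5985871 and its lowest 0.09 RPKM with SCH-772984. Junction reads were 0.49, 0.56 and 1.40 JPM in the DMSO libraries, from 20, 20 and 28 reads, so the DMSO libraries themselves differed by more than 2-fold. DMSO C set the level that a compound had to pass, and 7 compounds were counted as higher, with 3.17 JPM for T5985871, 2.83 for JFD00822 and 2.59 for MK-1775 as single libraries and 3.28 and 2.85 for the Vorinostat libraries. Of all genes, 6.72% (T5985871), 2.91% (JFD00822), 7.1% (MK-1775) and 23.9% (Vorinostat) were counted as higher by the junction rule. The others of the 7 were BRD4884 (19.1% of all genes), AW00693 (2.88%) and T5635931 (1.78%).

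Fosl2, also called Fra-2, had 5.97 RPKM in DMSO, 16.4 RPKM with BTB13120 (log2 ratio 1.38) and 12.7 RPKM with CI-994 (1.03), and only these were counted. With T5985871, where Fos was highest, Fosl2 was at 6.35 RPKM. Junction reads of Fosl2 were 11.4, 12.5 and 12.8 JPM in DMSO. They were 39.7 and 32.9 with CI-994, 30.4 and 27.4 with BRD6688 and 39.1 with BTB13120, all beyond DMSO and past 2-fold. Of all genes, 25.8%, 15.4% and 3.82% were counted as higher with these compounds by the junction rule. GNF-5837 (24.7 JPM) was past 2-fold by junction reads but not by RPKM (9.44 RPKM, log2 ratio 0.62). With it, 8.8% of all genes were counted as higher by the junction rule.

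Jun, the partner of Fos in AP-1, had 15.9 RPKM in DMSO. The 2 counted levels were 33.1 RPKM with GNF-5837 (log2 ratio 1.04) and 32.5 RPKM with Trametinib (1.01), both close to the threshold. SCH-772984 (25.9 RPKM) and Crenolanib (24.7 RPKM) were next among the kinase inhibitors, and all 4 were above DMSO while Fos and Egr1 were below it. Elsewhere Jun was at 28.5 RPKM with T5985871, 27.2 RPKM with BTB13120 and 23.9 RPKM with Vorinostat, and its lowest level was 12.1 RPKM with BRD4884. Jun has no junction reads, so no library-level value can be set beside these.

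Junb, a Jun family member that antagonises some actions of Jun, had 20.2 RPKM in DMSO and was counted once, at 43.9 RPKM with T5985871 (log2 ratio 1.10). Its lowest levels were 11.2 RPKM with SCH-772984, 11.9 RPKM with SEW06315 and 12.1 RPKM with Trametinib, within 2-fold of DMSO. Jund, the most constitutive Jun family member, had 15.9 RPKM in DMSO and was counted once, at 39.3 RPKM with BTB13120 (1.28). Its next level was 31.2 RPKM with GNF-5837 (0.95) and its lowest 9.18 RPKM with A-443654 (-0.76).

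Egr1 (chr18:34859823-34864984, plus strand), a transcription factor induced through ERK and Elk, showed the lowest ratios of the 10 genes. It had 16.8 RPKM in DMSO and 0.26 RPKM with Trametinib (log2 ratio -4.51), 0.35 RPKM with SCH-772984 (-4.35), 1.23 RPKM with GNF-5837 (-3.33) and 1.51 RPKM with Crenolanib (-3.11). No other compound went below 6.43 RPKM, the level with 5-azacytidine, which was also counted as lower (-1.32). With 0.5 RPKM added, the other kinase inhibitors, A-443654 (8.38 RPKM, -0.97) and NVP-AEW-541 (8.32 RPKM, -0.98), stopped just short of 2-fold. Their raw levels were just past it. Vorinostat alone was counted as higher by RPKM, at 36.8 RPKM (1.11). In all, 22 of 27 compounds were below DMSO and 5 above.

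Egr1 junction reads were 9.70, 10.7 and 9.54 JPM in the DMSO libraries. Trametinib had 3 reads (0.113 JPM) and SCH-772984 had 2 reads (0.0507 JPM), against 967 in the DMSO libraries together. The ratios to DMSO were 0.0113 (95% exact interval 0.00232 to 0.033) and 0.00505 (0.00061 to 0.0183), intervals that cover counting error only and overlap each other. Crenolanib and GNF-5837 had 16 and 20 reads, or 0.781 and 1.01 JPM. NVP-AEW-541 (4.88 JPM, ratio 0.488) and 5-azacytidine (4.61 JPM, ratio 0.461) were also counted as lower by junction reads. Of all genes, 0.517% and 0.751% were counted as lower with them by this rule. On the other side, the Vorinostat libraries had 23.3 and 37.1 JPM and the CI-994 libraries 23.9 and 17.99, all above DMSO, whereas BRD4884 (10.1 and 9.40) lay among the DMSO libraries or just below.

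**Figure D3:**
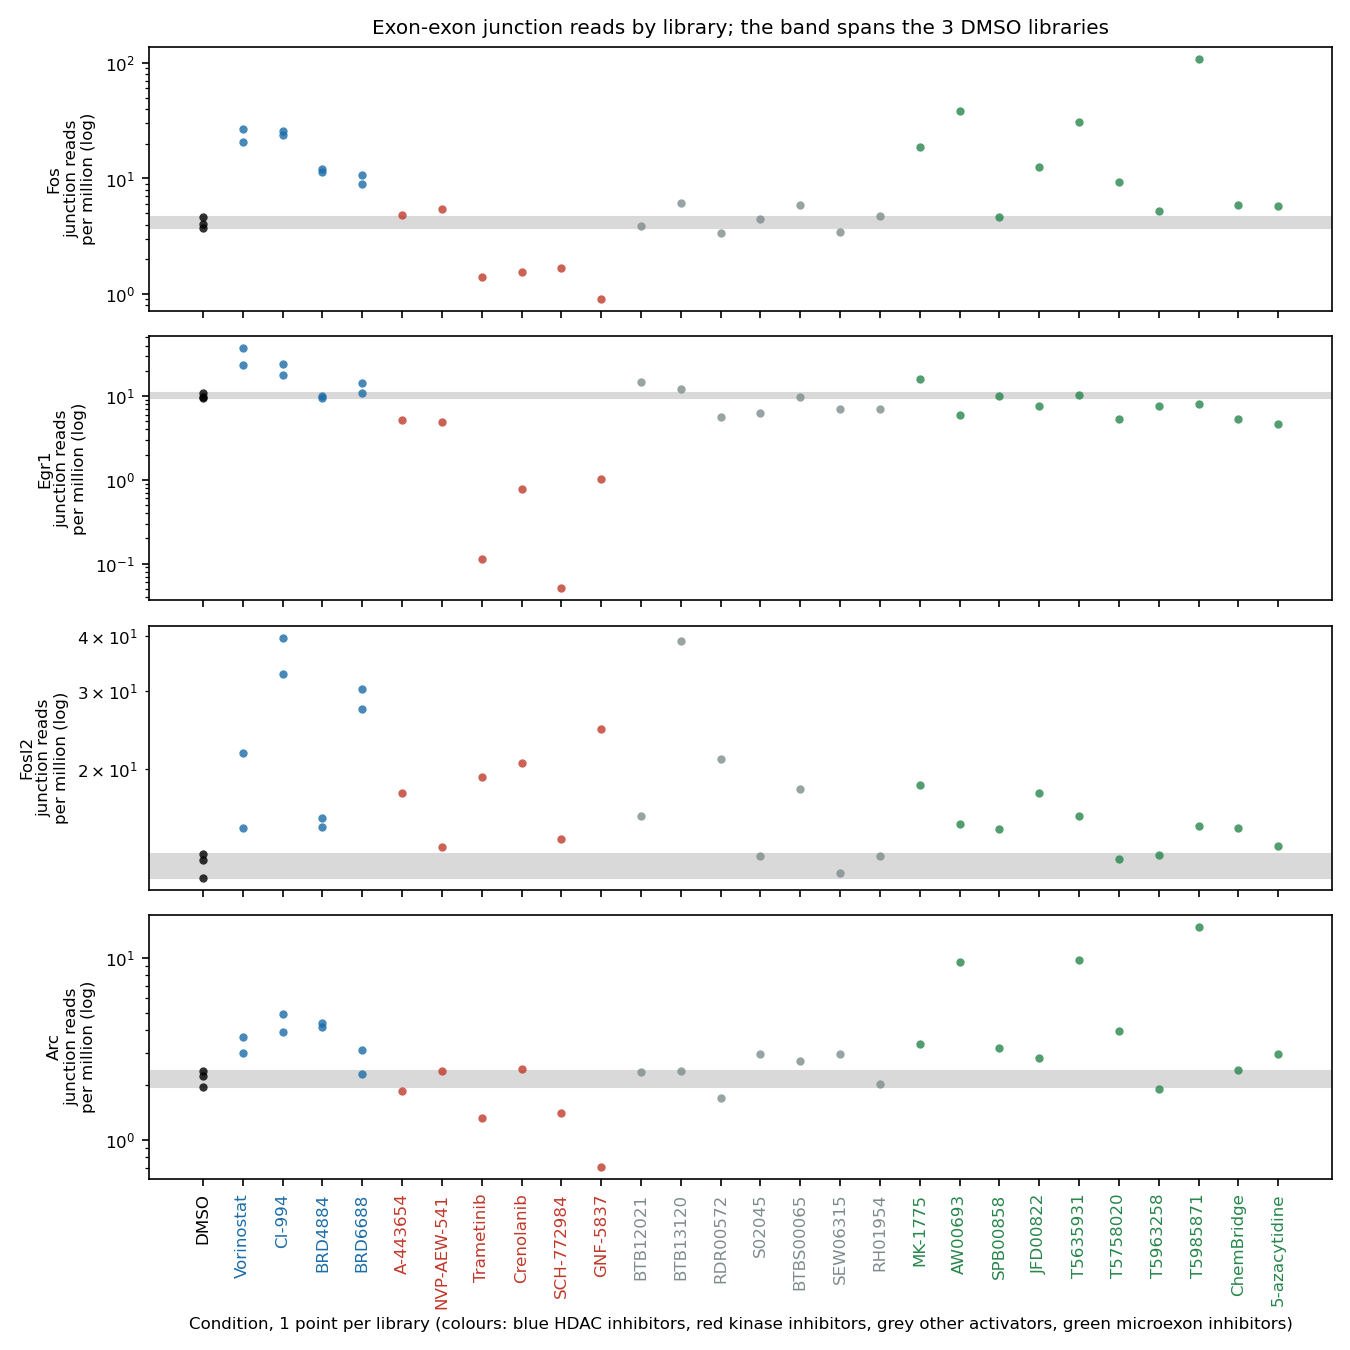
Exon-exon junction reads in JPM (log axes) of Fos, Egr1, Fosl2 and Arc, 1 point per library, with the grey band spanning the 3 DMSO libraries. The 8 HDAC inhibitor libraries lie above the band for Fos, and Trametinib and SCH-772984 lie near the bottom for Egr1, at 0.113 and 0.0507 JPM.

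Arc, whose product takes part in endocytosis of glutamate receptors at synapses, had 4.55 RPKM in DMSO and was counted with 3 microexon inhibitors: T5985871 (29.4 RPKM, log2 ratio 2.56), T5635931 (16.4 RPKM, 1.74) and AW00693 (16.3 RPKM, 1.74). Its junction reads were 2.39, 2.25 and 1.95 JPM in DMSO and 14.8, 9.68 and 9.46 JPM in these 3 libraries. CI-994, at 4.90 and 3.91 JPM, was at the edge of 2-fold, with a ratio of 2.01. GNF-5837 was the lowest at 2.20 RPKM and 0.71 JPM, from 14 reads.

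Ier2 and Ier5 encode nuclear proteins of the immediate early response. Ier2 had the highest RPKM of the 10 genes in DMSO, 42.6. It was counted only as lower, at 18.1 RPKM with GNF-5837 (log2 ratio -1.21) and 18.7 RPKM with Crenolanib (-1.16), while Trametinib and SCH-772984 gave 22.8 and 22.98 RPKM. Its highest level, 79.2 RPKM with T5985871, was short of 2-fold (0.89). Ier2 was below DMSO with all 4 HDAC inhibitors (-0.41 to -0.56), but with centring on all genes its value with CI-994 turned to 0.03. Ier5 had 5.40 RPKM in DMSO and 25.7 RPKM with T5985871 (2.15). Ier5 was lower with GNF-5837 (1.26 RPKM, -1.75) and Crenolanib (1.75 RPKM, -1.39).

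Among compounds, T5985871 had the most members counted as higher, 4 of 9 above 5 RPKM (Fos, Junb, Arc and Ier5) and none lower, against 6.05% of all genes higher and 8.41% lower. AW00693 (2.53% and 2.57% of all genes) and T5635931 (1.54% and 1.78%) each had Fos and Arc, 2 of 9. By RPKM, Fos alone was counted with MK-1775 (2.35% and 2.69%), JFD00822 (1.04% and 0.415%) and T5758020 (1.14% and 1.6%). Egr1 was within 2-fold of DMSO with each of these 6 compounds, from 8.68 RPKM (AW00693) to 17.4 RPKM (MK-1775). With 5-azacytidine only Egr1 was counted, as lower (0.81% and 0.665%). No member was counted with SPB00858 (0.377% and 0.325%), T5963258 (0.73% and 0.761%) or ChemBridge 7678804 (1.21% and 1.24%).

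GNF-5837 and Crenolanib each had 3 of 7 members counted as lower (Egr1, Ier2 and Ier5), against 5.7% and 2.46% of all genes, and GNF-5837 also had Jun higher, against 3.57% (1.84% higher with Crenolanib). Trametinib had Egr1 lower (1.86%) and Jun higher (1.53%), and SCH-772984 had Egr1 lower (1.27%) and none higher (0.633%). Over these 4 compounds, which were grouped after their Egr1 values were seen, Fos, Fosb, Junb, Egr1, Arc, Ier2 and Ier5 were below DMSO by RPKM with each, and Fosl2, Jun and Jund above it with each. All these ratios share the same merged DMSO value, and how many of all genes keep the same sign over the 4 was not counted. Some were small, such as Jund with Crenolanib (0.10) and Fosl2 with SCH-772984 (0.14). Centring turned Junb with GNF-5837 to 0.04, and by junction reads Arc with Crenolanib (2.44 JPM) lay just above the highest DMSO library (2.39 JPM). The levels of Ier2 with them (18.1 to 22.98 RPKM) did not overlap those with the other 23 compounds (from 28.7 RPKM). How many of all genes show such a gap was not counted, so it is not read as particular to Ier2. The levels did overlap for Ier5 (1.26 to 3.07 RPKM against a lowest of 2.71 RPKM, RDR00572) and for Jun (24.7 to 33.1 RPKM against a highest of 28.5 RPKM, T5985871). By RPKM, no member was counted with A-443654 (1.48% of all genes higher and 0.961% lower) or NVP-AEW-541 (2.86% and 0.865%). By junction reads, Egr1 was counted as lower with NVP-AEW-541 (0.517% of all genes lower by that rule).

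BTB13120 was the only one of the other activators with counted members, Fosl2 and Jund (2 of 7, against 2.92% of all genes higher and 3.36% lower). Jun was at 27.2 RPKM and Junb at 29.9 RPKM with it, while Fos (3.28 RPKM) and Egr1 (17.01 RPKM) were near DMSO. No member was counted with BTB12021 (0.895% and 0.864%), RDR00572 (1.22% and 0.626%), S02045 (0.605% and 0.594%), BTBS00065 (2.24% and 1.31%), SEW06315 (1.89% and 0.82%) or RH01954 (0.451% and 0.357%). Vorinostat had Fos and Egr1 higher (10.4% of all genes higher and 22.5% lower) and CI-994 had Fos and Fosl2 (10.2% and 26.1%). BRD4884 (5.29% and 4.42%) and BRD6688 (5.14% and 6.75%) had no counted member by RPKM.

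**Figure D4:**
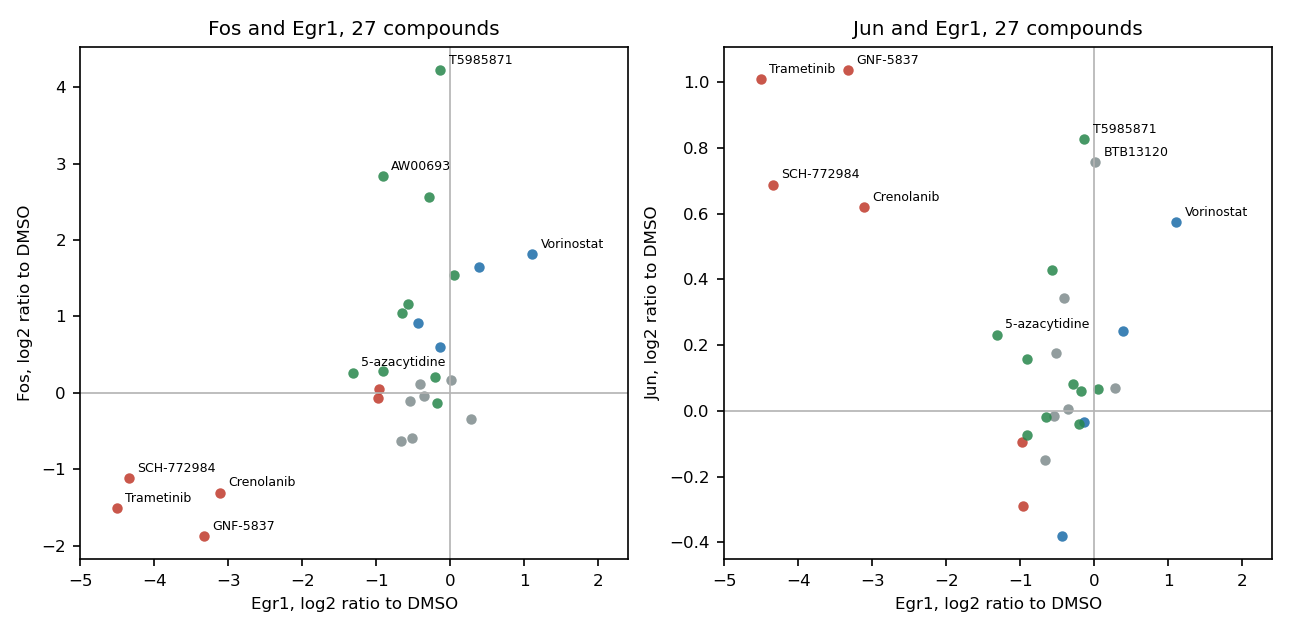
Log2 ratios to DMSO of Fos (left) and Jun (right) against Egr1, 1 point per compound, coloured by class. Trametinib, SCH-772984, Crenolanib and GNF-5837 lie far to the left in both panels, low for Fos and high for Jun, while T5985871 has the highest Fos with Egr1 near 0 (-0.14).

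Over the 27 compounds, the log2 RPKM of Fos went with that of Arc (Pearson r = 0.92, Spearman rho = 0.84), Fosb (r = 0.91, rho = 0.89) and Ier5 (r = 0.89, rho = 0.77), and gave r = -0.11 with Fosl2, -0.18 with Jun and -0.29 with Jund. Without the 4 kinase inhibitors Fos gave 0.07 with Fosl2, 0.39 with Jun and -0.11 with Jund. Jun went with Jund (r = 0.62). Fos and Egr1 gave r = 0.60 over all compounds and 0.24 over the 23 that leave out the 4 kinase inhibitors, so that relation rests on those 4. Likewise Jun and Egr1 gave -0.51 over all compounds and 0.43 without them. The points are single merged values scaled to each condition's total, and they are a description.

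Of all genes above 5 RPKM in DMSO, the 5 whose profile was most like that of Fos were Bag3 (r = 0.92), a co-chaperone of HSP70, Gm23849 (0.91), annotated as a small nuclear RNA gene, Hexim1 (0.89), an inhibitor of the elongation factor P-TEFb, the member Ier5 (0.89) and Map2k3 (0.89), a kinase that activates p38. Bag3 was at 61.9 RPKM in DMSO and 203 RPKM with T5985871, and Hexim1 at 11.2 and 67.7 RPKM. Without T5985871 and AW00693, the compounds farthest from the median of Fos, r was 0.87 for Bag3 and 0.80 for Hexim1.

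Those most like Egr1 were Dusp6 (r = 0.89), an ERK phosphatase, Spry4 (0.88), a receptor tyrosine kinase feedback inhibitor, Irs2 (0.88), an insulin receptor substrate, Loxl2 (0.87), a lysyl oxidase, and Dusp4 (0.87), a MAP kinase phosphatase. Dusp6 was at 22.01 RPKM in DMSO and at 0.44 to 2.71 RPKM with the 4 kinase inhibitors, and Spry4 at 6.60 RPKM in DMSO and at 0.05 to 1.03 RPKM. Without these 4 compounds r fell to 0.56 for Dusp6 and 0.17 for Spry4, so the likeness rests mainly on them. Those most like Jun were Myh3 (r = 0.74), Rhob (0.72), mt-Nd5 (0.72), Klc1 (0.70) and Jak1 (0.69), lower values than for Fos or Egr1.

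A list of 30 other immediate early genes was written with earlier results known. Of its 401 pairs above 5 RPKM, 54 were higher and 9 lower, against 2.67% and 3.86% of all pairs, and 18 genes were counted with at least 1 compound. A gene below 5 RPKM in DMSO entered only with compounds that took it above 5 RPKM, and could not be counted as lower. Klf4 (1.99 RPKM in DMSO) was thus higher with all 6 compounds with which it entered, and Nr4a3 (1.04 RPKM) with all 3. The counts and list medians that follow share this limit. T5985871 had the most, 11 higher and 1 lower of 19 (6.05% and 8.41% of all genes), with a list median of 1.25 against -0.20 for all genes. Vorinostat had 9 higher and 2 lower of 19 (median 0.87 against -0.36; 10.4% and 22.5% of all genes). CI-994 had 6 higher of 19 (10.2%), AW00693 5 of 18 (2.53%) and T5635931 4 of 18 (1.54%). Of the 4 kinase inhibitors, Trametinib had 3 higher and 1 lower of 14 (1.53% and 1.86%) and Crenolanib none higher and 3 lower of 13 (1.84% and 2.46%). SCH-772984 had 1 higher and none lower of 12 (0.633% and 1.27%), and GNF-5837 none higher and 1 lower of 14 (3.57% and 5.7%).

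Outside the cell type markers, the 8 listed genes counted with the most compounds all belong to this list. They were picked by these counts, which are therefore a description only. How many of all genes are counted with as many compounds was not examined. Ier3, which protects cells from apoptosis, was at 5.57 RPKM in DMSO and higher with 8 compounds, up to 38.7 RPKM with T5985871, and lower with Crenolanib (2.50 RPKM). All 4 HDAC inhibitors were among the 8 (17.96 to 34.2 RPKM). Csrnp1, a nuclear factor, was higher with the 4 HDAC inhibitors, at 21.4 to 30.9 RPKM against 7.57 RPKM in DMSO, and with no other compound, and it was lower with SEW06315 (3.31 RPKM). Of all genes, 10.4% (Vorinostat), 10.2% (CI-994), 5.29% (BRD4884) and 5.14% (BRD6688) were higher. The share higher with all 4 was not counted. Nr4a2, an orphan nuclear receptor, was at 3.79 RPKM in DMSO and between 10.2 and 12.8 RPKM with NVP-AEW-541 and 5 microexon inhibitors, including T5963258 (10.9 RPKM), with which none of the 10 members was counted.

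Klf4, a Krüppel-like factor, was higher with 6 compounds, at 10.9 RPKM with T5985871 and 5.02 RPKM with Trametinib against 1.99 RPKM in DMSO. Dusp1, a MAP kinase phosphatase, was higher with 5, led by T5985871 (17.9 RPKM) and Vorinostat (16.04 RPKM), from 4.77 RPKM. Per1, a clock gene, was higher with 5, up to 11.2 RPKM with T5985871, and Zfp36, which binds and destabilises mRNA, with 4, up to 13.3 RPKM with Vorinostat. Klf6 stood at 23.6 RPKM in DMSO and was higher with Vorinostat (75.0 RPKM), Trametinib (58.0 RPKM), MK-1775 (55.9 RPKM) and SCH-772984 (51.4 RPKM). It was thus higher with the MEK and ERK inhibitors with which Egr1 was lowest.

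**Figure D5:**
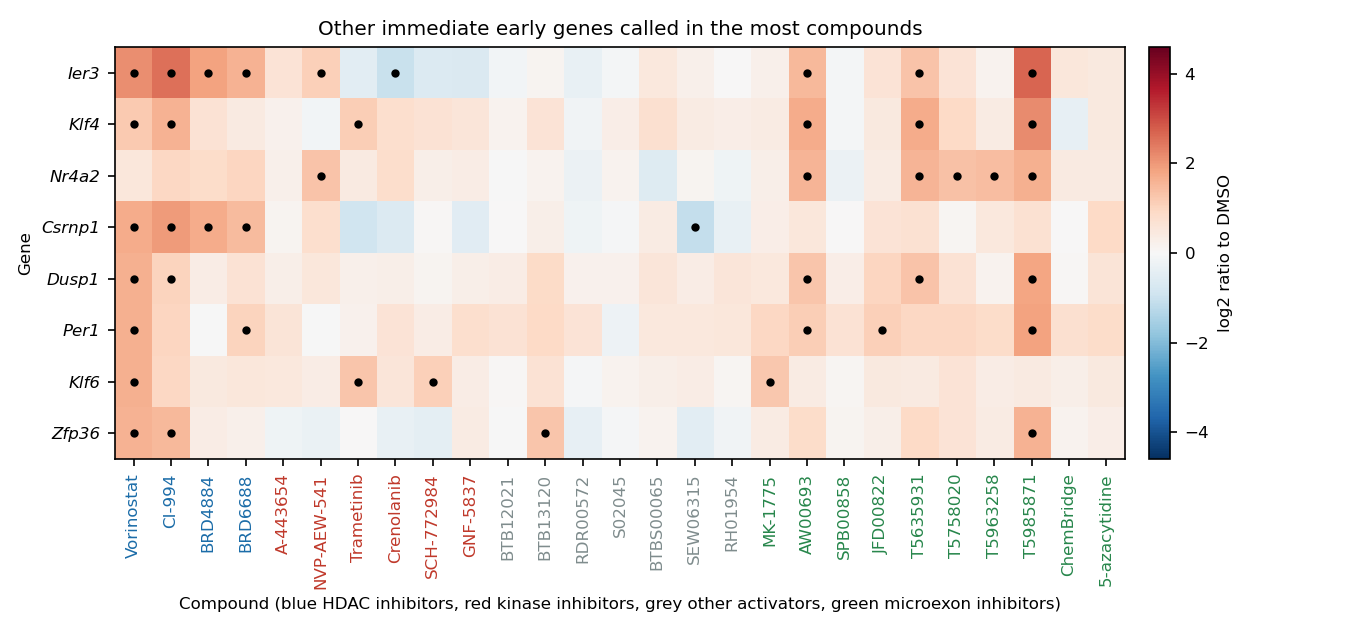
Log2 ratio of merged RPKM to DMSO for the 8 other immediate early genes counted with the most compounds, with the same colours and dots as the plot of the 10 genes. Ier3 and Csrnp1 carry dots with all 4 HDAC inhibitors, and Klf6 with Trametinib and SCH-772984.

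Dimer partners and upstream regulators are given by their counts, against 2.67% of all pairs higher and 3.86% lower. These shares are without centring, and the shares after centring were not counted. Of 10 AP-1 dimer partners outside the Fos and Jun families, 2 of 162 pairs were higher and 7 lower (6 higher and 2 lower after centring). All 7 lower pairs were with HDAC inhibitors, where 15.1% of all pairs were lower. Of 24 upstream regulators, among them the ERK and JNK kinases, Srf, Elk factors and CREB with its co-activators, 4 of 634 pairs were higher and 9 lower (7 and 4 after centring). Among the 4 kinase inhibitors above, the ETS factor Elk3 was lower with SCH-772984 and GNF-5837 (14.1 RPKM in DMSO), and no upstream regulator was counted with Trametinib or Crenolanib. With T5985871, 3 were lower and none higher.

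Compounds that the study relates by structure or by chemical name were set side by side without a test. BRD4884 and BRD6688, both derivatives of CI-994 given at 10 µM, had Fos at 5.87 and 4.59 RPKM and at 11.4 and 12.2 against 8.98 and 10.7 JPM. Fosl2 differed more, at 6.54 against 10.4 RPKM and at 15.5 and 14.8 against 30.4 and 27.4 JPM. How many of all genes differ as much between these libraries was not counted. Among compounds whose chemical names end in benzenesulfonamide, RDR00572 and RH01954 were both given at 2.5 µM, as single libraries. Fos was at 1.68 and 2.78 RPKM, Egr1 at 10.4 and 13 RPKM, and Fosl2 at 6.03 and 6.14 RPKM but at 21.1 and 12.7 JPM. The interval of these differences cannot be given from single values. BTB12021 and S02045, of the same group, were given at other doses (20 and 5 µM), with Fos at 2.16 and 2.62 RPKM and Egr1 at 20.6 and 11.4 RPKM.

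Introns of the 5 genes were mostly spliced out. Among 313 values of intron retention that passed the coverage filters, 199 were 0% and 307 were below 5%, and the highest was 15.4%, in Fosb with AW00693. That Fosb intron passed in 10 libraries, on 15 to 37 reads each, and in no DMSO library, so it has no DMSO value beside it. The 108-nt exon of Fosl2 at chr5:32452794-32452901 (coordinates in mm9, as deposited) was included at 98.8% ± 1.64 (SD, n = 3) in DMSO and at 94.1% or more in every library. Arc has splice acceptors 3 nt apart at its middle exon (chr15:74500610-74500749, mm9). The longer form made up 63.3% ± 10.2 (SD, n = 3) in DMSO, from 29.9% in Vorinostat A to 82.8% in BRD4884 A over the 29 libraries that passed, on 25 to 183 reads. Vorinostat B had 56.3%, so the low value was not shared by both libraries of that compound. With T5985871, where Arc was highest, the longer form was at 72.7%, within the range of the DMSO libraries (53.2% to 73.6%).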

How the data were processed

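PolyA RNA of N2A cells was sequenced after 24 h, and the submitters' processing notes name Salmon (0.10.2), edgeR and build mm9. The authors quantified reads and deposited RPKM per gene with replicates merged, 1 value per condition. They also deposited, per library, the percent spliced in (PSI) or percent intron retention of each splicing event with quality strings that hold junction read counts. The deposited columns of the authors' own comparisons (log2 fold changes, p-values and q-values) were not used. Samples were grouped by the treatment in the labels, and no column of unmapped values was present (0).

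Log2 ratios used RPKM + 0.5, and a pair was counted past 2-fold where the gene exceeded 5 RPKM with the compound or in DMSO. Junction reads were taken from the quality strings of introns and divided by the library's sum over all introns. PSI was used where the authors' coverage score was at least LOW, and intron retention from 15 reads with a balance p above 0.05. All 10 members are named; genes of the other lists, cell type markers apart, were named when counted in 3 or more compounds, at most 8; for likeness, the 5 genes above 5 RPKM in DMSO with the highest Pearson r were named. The members and lists were chosen with earlier results of these data known. Some results for the cell type markers are not reported here. Nothing was tested against DMSO. The counting was checked on simulated data. Promoter sequences of 7 members came from RefSeq, and those of Arc, Ier2 and Egr1 were not used here. The study describes the DMSO and HDAC inhibitor libraries as biological replicates, and gives 2 for DMSO where the labels list 3, all used here. Exact 95% intervals of junction read ratios cover counting error only. Alternatives were pseudocounts of 0.1 and 1, a floor of 1 RPKM or none, centring, 1.5-fold and 3-fold, median-ratio scaling, and leaving out each DMSO and HDAC inhibitor library. Python 3.11.15, pandas 2.3.3, numpy 2.4.6 and scipy 1.17.1 were used.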

Additional observations from a re-analysis of the deposited data

How the results depend on the processing

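Of the 7 alternatives for RPKM, only centring could change the sign of a ratio. No counted pair of member and compound changed sign under it. At 1.5-fold, 33 pairs were higher and 24 lower in all, with 7 higher for HDAC inhibitors, 7 higher and 17 lower for kinase inhibitors, 3 lower for other activators and 4 lower for microexon inhibitors. At 3-fold, 9 were higher and 5 lower in all, with 2 higher for HDAC inhibitors, 0 higher and 5 lower for kinase inhibitors, 0 higher for other activators, and 7 higher and 0 lower for microexon inhibitors. A pseudocount of 1 left 1 higher pair for kinase inhibitors. Shares of all pairs were not counted under the alternatives for RPKM. Those given above for the 2-fold rule do not apply to these counts. Centring gave 5 lower pairs among other immediate early genes, 6 higher and 2 lower among AP-1 dimer partners, and 7 higher and 4 lower among upstream regulators, since it moves the median of all genes to 0. For junction reads, leaving out each library in turn gave 25 to 32 pairs higher and 10 to 11 lower, the highest without DMSO C, and dropping the minimum of 1 JPM, chosen after seeing the data, gave 18 lower. The mean use of the longer Arc exon in DMSO was 58.1% to 68.3% when a DMSO library was left out. The highest intron retention (15.4%) comes from the AW00693 library, so leaving out a DMSO library could not lower it. With no coverage filter, also chosen later, the highest was 60%. Windows with TGACGTCA went from 0 to 2 with 1 mismatch and to 1 with TGACGT. Median-ratio scaling gave 25 pairs higher and 11 lower, against 5.92% and 2.77% of all pairs. No paired analysis was possible because no result comes from a test, the junction reads with replicate letters included, and the RPKM values merge replicates. Precision is limited by single libraries for 23 compounds and, for Fosb, by 20 to 28 junction reads per DMSO library.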
